A study of Mus musculus with 9 samples.

Results

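Interferon signalling through STAT, IRF and SOCS genes was followed in mouse gastrocnemius, a calf muscle. The 9 genes were taken by symbol from the deposited count tables: Stat2, Stat3 and Stat4, Irf1, Irf5, Irf7 and Irf9, and Socs1 and Socs3. All 9 were found among the 55401 genes of each table, and all 9 passed the expression filter with 18514 genes in all. The 3 groups held 3 libraries each from wild-type FVB mice 2 to 3 months old, taken 7 weeks after the muscle was injected. One group received saline, one an adeno-associated virus vector with green fluorescent protein (AAV-GFP), and one a vector that also carried MBNL1Δ, which the series title describes as a decoy protein for the expanded CUG repeats of myotonic dystrophy (AAV-GFP-MBNL1Δ). The labels leave out the promoter, serotype and dose of the vectors. Whether each library is a separate animal is not stated either, so p-values rest on the spread between libraries, which may be technical.

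Interferons bind receptors on the cell surface, and the JAK kinases attached to those receptors then phosphorylate STAT proteins, which enter the nucleus. Type I interferon acts largely through ISGF3, a complex that holds STAT2 and IRF9 and binds interferon-stimulated response elements (ISREs). Type II interferon, made by T and NK cells, acts largely through STAT proteins bound at gamma-activated sites (GAS) and induces IRF1. SOCS proteins are themselves induced by this signalling and inhibit it.

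Depth was 44603618 to 76970849 counts on genes per library, and values below are in CPM, with library sizes adjusted by TMM scaling factors. As a check of the tissue label, the 8 muscle fibre markers summed to 78810 to 173500 CPM in every library. The library AAV-GFP 2 stood apart, where the 10 most abundant genes took 17.7% of counts and not 23.6% to 27.7% as in the other 8. Xist ran from 105.1 to 135.7 CPM over 6 libraries and was at 0.0182 to 0.0902 in those of AAV-GFP-MBNL1Δ, and the Y-linked gene Ddx3y was at 82.7 to 84.6 CPM in the latter and 0.409 to 2.58 in the others. The sex of the mice and the MBNL1Δ vector thus cannot be told apart in either comparison that uses that vector.

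On GRCm38 (GENCODE M21), the STAT genes lie at chr10:128270559-128292849 (Stat2), chr11:100885098-100939540 (Stat3) and chr1:51987148-52107189 (Stat4). The IRF genes lie at chr11:53770014-53778374 (Irf1), chr6:29526625-29541871 (Irf5), chr7:141262706-141266481 (Irf7) and chr14:55603571-55610030 (Irf9). The SOCS genes lie at chr16:10782240-10785536 (Socs1) and chr11:117966079-117970047 (Socs3). Counts cover all exons of a gene, and no other gene model overlaps Stat2, Socs1 or Socs3.

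Promoters of the genes were read for the motifs of these factors, since the genes are both parts and targets of the pathway. Each window covers the 250 bases before a RefSeq start (GRCm38.p6). GAS was searched as TTCNNNGAA, which reads the same on both strands, and the ISRE core as GAAA, any 2 bases and GAAA again, on both strands. The 9 genes have 12 windows, since Stat4, Irf1 and Irf9 have 2 each. A GAS match was present in 7.02% of 32851 windows and in 2 of the 12, of Irf1 and Socs3. The ISRE core was present in 2.98% of windows and in 3 of the 12, of Socs1, Stat2 and Stat4. The 3 windows below lie just upstream of the gene models of Irf1, Socs1 and Stat2, which each fell under the decoy vector against the control vector, and capitals mark the matches. They are Irf1 at chr11:53769764-53770013 on the plus strand, Socs1 at chr16:10785537-10785786 on the minus strand and Stat2 at chr10:128270248-128270497 on the plus strand, each printed 5′ to 3′ on the strand of its gene.
Irf1: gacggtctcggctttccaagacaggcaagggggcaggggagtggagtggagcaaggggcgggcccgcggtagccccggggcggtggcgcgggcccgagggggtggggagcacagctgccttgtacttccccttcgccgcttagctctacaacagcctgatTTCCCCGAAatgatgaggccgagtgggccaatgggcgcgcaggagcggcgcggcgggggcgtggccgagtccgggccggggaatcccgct
Socs1: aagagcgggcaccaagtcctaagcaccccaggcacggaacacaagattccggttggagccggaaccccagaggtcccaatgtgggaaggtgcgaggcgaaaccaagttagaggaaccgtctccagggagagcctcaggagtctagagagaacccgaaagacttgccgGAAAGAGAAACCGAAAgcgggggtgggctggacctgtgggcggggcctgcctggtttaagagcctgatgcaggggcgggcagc
Stat2: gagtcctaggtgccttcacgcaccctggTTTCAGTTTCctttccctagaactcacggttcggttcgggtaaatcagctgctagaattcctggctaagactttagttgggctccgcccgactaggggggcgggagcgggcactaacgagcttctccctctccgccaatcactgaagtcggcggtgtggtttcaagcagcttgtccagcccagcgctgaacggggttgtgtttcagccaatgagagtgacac
The Irf1 match, TTCCCCGAA, runs from 90 to 82 bases before the start. Socs1 holds 2 overlapping ISRE core matches, GAAAGAGAAA and GAAACCGAAA, from 83 to 68 bases before its start, and Stat2 holds 1 on the opposite strand from 222 to 213 bases before its start. A match is a description of these letters, and binding was not measured here.

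The levels of all 9 genes were highest in AAV-GFP 2, and within the AAV-GFP group all 9 were lowest in AAV-GFP 3. Against the saline mean, the median of the 9 genes was 3.34-fold in AAV-GFP 1, 8.24-fold in AAV-GFP 2 and 2.08-fold in AAV-GFP 3. In the AAV-GFP-MBNL1Δ libraries it was 1.43-fold, 1.11-fold and 0.988-fold. In 8 of the 9 genes the decoy vector group overlapped saline. Stat4 was the exception, apart and higher as were 22.7% of all tested genes.

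**Figure D1:**
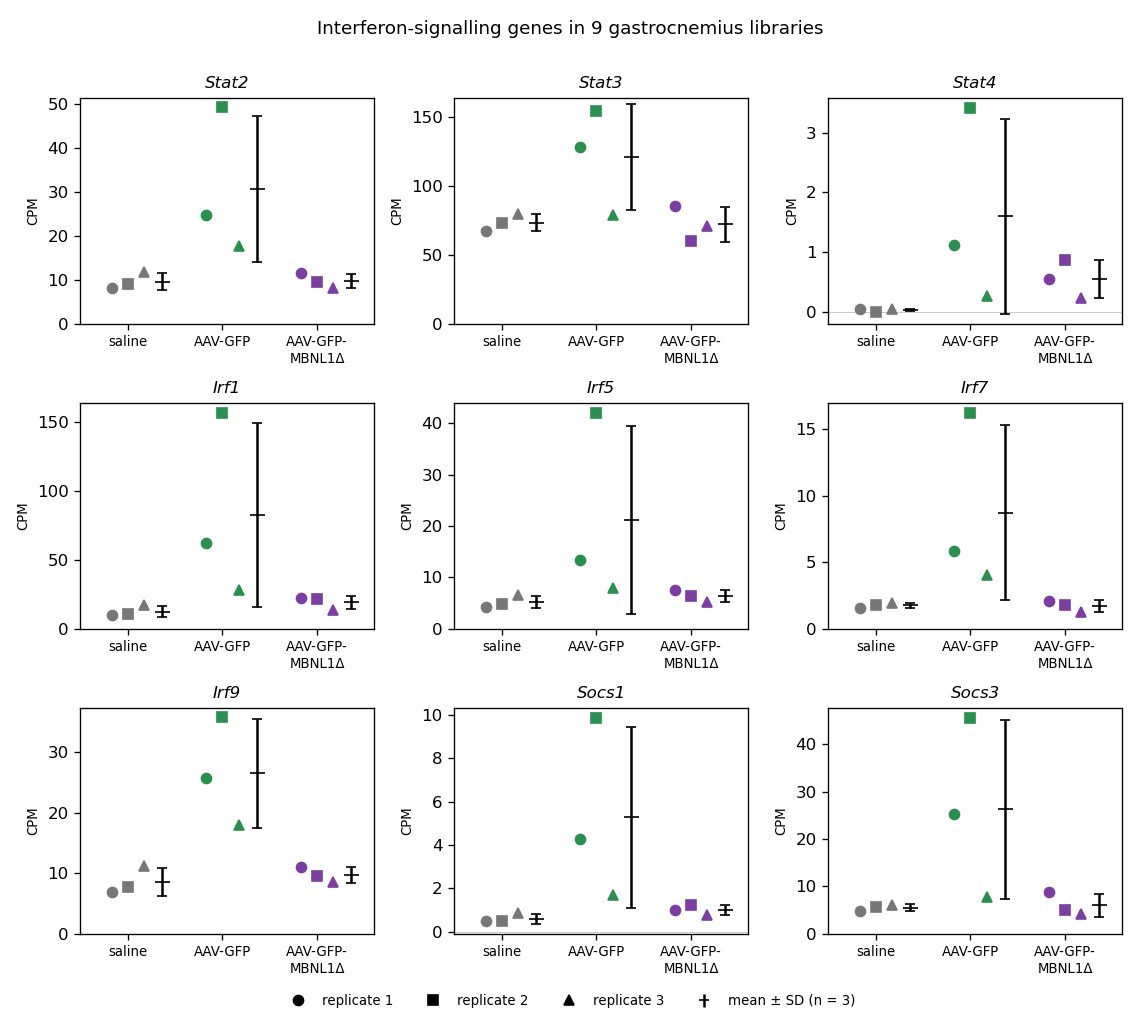
CPM of each of the 9 genes (vertical axes from 0) in the 3 saline, 3 AAV-GFP and 3 AAV-GFP-MBNL1Δ libraries, with the marker shape giving the replicate number and the black bar the mean ± SD (n = 3). AAV-GFP 2 is the highest library in all 9 panels.

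Stat2 and Irf9 encode subunits of ISGF3. Stat2 was at 8.17, 8.96 and 11.7 CPM in saline 1 to 3, at 24.9, 49.5 and 17.8 in AAV-GFP 1 to 3, and at 11.6, 9.44 and 8.24 in AAV-GFP-MBNL1Δ 1 to 3. Irf9 was at 6.94, 7.69 and 11.3 CPM in saline, at 25.7, 35.9 and 17.9 in AAV-GFP, and at 11.02, 9.60 and 8.53 in AAV-GFP-MBNL1Δ. For both genes every AAV-GFP library lay above every other library, while saline and AAV-GFP-MBNL1Δ overlapped. The ratio of Stat2 to Irf9 CPM ran from 0.966 to 1.38 over the 9 libraries, a ratio chosen after the values were seen. Their profiles over the 9 libraries were the closest of any pair among the 9 genes, with a root mean square (RMS) difference of centred log2 CPM of 0.16.

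Irf1, the factor that type II interferon induces, was at 9.87, 10.7 and 17.1 CPM in saline, at 62.6, 156.9 and 28.5 in AAV-GFP, and at 22.3, 22.0 and 13.8 in AAV-GFP-MBNL1Δ. Irf7, the factor that amplifies type I interferon production, was at 1.56, 1.76 and 1.95 CPM in saline, at 5.86, 16.3 and 4.05 in AAV-GFP, and at 2.09, 1.82 and 1.24 in AAV-GFP-MBNL1Δ. Irf5, which acts downstream of Toll-like receptors in macrophages and other myeloid cells, was at 4.29, 4.91 and 6.55 CPM in saline, at 13.4, 42.0 and 7.90 in AAV-GFP, and at 7.50, 6.42 and 5.23 in AAV-GFP-MBNL1Δ. In each of the 3 genes all AAV-GFP libraries were above all others, by a narrow margin for Irf5, where AAV-GFP 3 was next to AAV-GFP-MBNL1Δ 1.

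Stat3, which carries signals of the interleukin 6 family, was at 67.6, 72.9 and 79.3 CPM in saline, at 128.3, 154.3 and 78.8 in AAV-GFP, and at 85.5, 60.3 and 70.8 in AAV-GFP-MBNL1Δ. Its AAV-GFP 3 value lay within the saline range, so its groups overlapped. Stat4, which carries interleukin 12 signals in T and NK cells, had 3, 0 and 3 counts in saline, 75, 274 and 12 in AAV-GFP, and 36, 48 and 15 in AAV-GFP-MBNL1Δ. These correspond to 0.0433, 0 and 0.0390 CPM, to 1.11, 3.42 and 0.266 CPM, and to 0.541, 0.873 and 0.225 CPM. Stat4 was the one gene of the 9 for which every library of both vectors lay above every saline library. For each vector taken singly, this held for 14.7% of all tested genes with AAV-GFP and 22.7% with AAV-GFP-MBNL1Δ.

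Socs1, an inhibitor of JAK kinases that interferon induces, was at 0.476, 0.469 and 0.871 CPM in saline, at 4.29, 9.86 and 1.68 in AAV-GFP, and at 0.978, 1.22 and 0.749 in AAV-GFP-MBNL1Δ. Socs3, an inhibitor of interleukin 6 family signalling, was at 4.79, 5.74 and 6.07 CPM in saline, at 25.3, 45.6 and 7.75 in AAV-GFP, and at 8.78, 5.002 and 4.27 in AAV-GFP-MBNL1Δ. AAV-GFP was above saline in every library for both genes, but for Socs3 the AAV-GFP 3 value was below that of AAV-GFP-MBNL1Δ 1. The ratio of Socs1 to Irf1 CPM ran from 0.0437 to 0.0685 over the 9 libraries, a ratio chosen after the values were seen, although each gene varied more than 10-fold. Their RMS difference of 0.19 was the second closest pair.

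Levels were set against each other per length, as CPM per kilobase of annotated exon. In saline the order was Stat3 (7.69 ± 0.619 (SD, n = 3)), Irf1 (3.16 ± 0.989), Socs3 (1.91 ± 0.230), Irf5 (1.81 ± 0.403), Stat2 (1.62 ± 0.314), Irf9 (1.60 ± 0.428), Irf7 (0.465 ± 0.0518), Socs1 (0.208 ± 0.0791) and Stat4 (0.00709 ± 0.00616). Socs3, Irf5, Stat2 and Irf9 overlapped within 1 SD from each to the next, and the other neighbours did not. In AAV-GFP, Irf1 stood first at 20.8 ± 16.7 CPM per kilobase and Stat3 second at 12.6 ± 4.03, but every neighbour in that order overlapped within 1 SD. In AAV-GFP-MBNL1Δ, Stat3 was again first at 7.58 ± 1.33 and Irf1 second at 4.86 ± 1.22, and those did not overlap.

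AAV-GFP against saline asks what the control vector does to muscle. The fitted values of all 9 genes were above 0 but none passed the threshold of an adjusted p under 0.05 with edgeR, where 0% of all tested genes passed in either direction. The log2 fold changes (± SE) were 1.68 ± 0.35 for Stat2 and 1.62 ± 0.27 for Irf9 among the ISGF3 subunits, each with an adjusted p of 0.0841. Irf1 (2.72 ± 0.58), Irf7 (2.32 ± 0.49), Socs1 (3.12 ± 0.61) and Stat4 (5.76 ± 1.17, resting on 6 counts in saline) had the same adjusted p of 0.0841, the lowest of any tested gene. Genes outside the 9, among them B2m and Tap1, were tied at this value, so it gives no rank. Socs3 (2.25 ± 0.57) had an adjusted p of 0.0932, Irf5 (2.01 ± 0.55) 0.111 and Stat3 (0.72 ± 0.23) 0.144, all with edgeR. The median log2 fold change of the 9 genes was 2.25, against -0.01 over all tested genes.

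At an unadjusted p under 0.05, all 9 genes were higher with edgeR, as were 15.6% of all tested genes. The groups did not overlap in 8 of the 9 genes, all higher in AAV-GFP, against 14.7% of all tested genes in that direction. Calls turned on AAV-GFP 3: without that library all 9 genes rose with edgeR, with adjusted p from 0.00163 for Socs1 to 0.00584 for Irf5. Over all tested genes that refit gave 3262 calls in either direction, against 0 with all libraries in, so the shift was not particular to the 9. In the refits without 1 of the other 8 libraries none of the 9 genes was called. Leaving out AAV-GFP 2, the median log2 fold change of the 9 was 1.47, with Irf5 at 0.999, Irf7 at 1.47 and Stat3 at 0.47. DESeq2 called all 9 genes with all libraries in and limma-voom called 0. With libraries weighted by quality, a setting chosen after seeing the data, limma-voom called 9. Over all tested genes these gave 1705, 0 and 5464 calls in either direction.

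**Figure D2:**
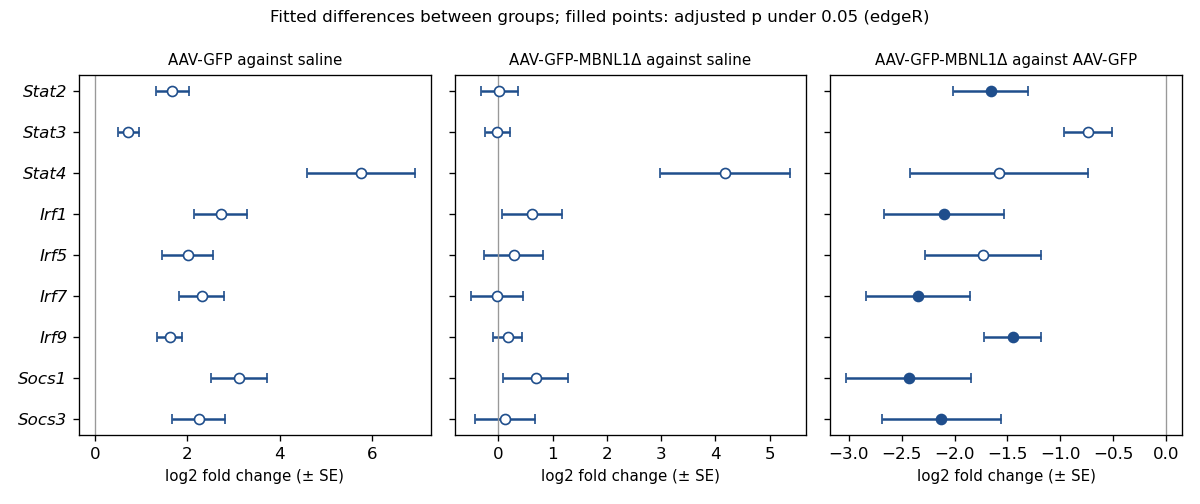
Log2 fold change ± SE (horizontal axes) of each gene in the 3 comparisons from the edgeR fit of all 9 libraries; filled points have an adjusted p under 0.05. None is filled against saline and 6 are filled for AAV-GFP-MBNL1Δ against AAV-GFP.

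AAV-GFP-MBNL1Δ against saline asks what the decoy vector does to normal muscle, but by Xist and Ddx3y the sex of the mice also differs. None of the 9 genes passed the edgeR threshold, where 4.76% of all tested genes passed as higher and 4.6% as lower, and 1 of the 9, Stat4, was higher at an unadjusted p under 0.05, as were 13.1% of all tested genes. The median log2 fold change of the 9 genes was 0.17, against 0.02 over all tested genes. Stat2 (0.02 ± 0.35), Stat3 (-0.02 ± 0.23), Irf7 (-0.03 ± 0.48), Socs3 (0.12 ± 0.55), Irf9 (0.17 ± 0.27) and Irf5 (0.28 ± 0.54) lay within 1 SE of 0. Irf1 (0.62 ± 0.55) and Socs1 (0.69 ± 0.60) lay just over 1 SE above it. A p that misses the threshold does not show that these levels were equal, and the fit pools the spread of all 9 libraries.

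Stat4 was the exception, at 99 counts in the 3 AAV-GFP-MBNL1Δ libraries against 6 in the 3 saline libraries. Its log2 fold change was 4.18 ± 1.20 with an edgeR adjusted p of 0.0672, and its groups did not overlap, as was so for 22.7% of all tested genes in that direction. The call was gained without AAV-GFP 2 (adjusted p 0.0152) and without AAV-GFP 3 (0.0216), and with DESeq2 and the quality weights, which each called 1 of the 9 genes, while limma-voom called 0.

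AAV-GFP-MBNL1Δ against AAV-GFP sets the vector with MBNL1Δ against the vector without it. By Xist and Ddx3y the sex of the mice differs in the same way, so the falls below cannot be assigned to either. This comparison gave 6 of the 9 genes lower with edgeR, against 10.3% of all tested genes, and none higher, against 10.8%. Irf9 fell by 1.45 on the log2 scale (SE 0.27, edgeR adjusted p 0.0118) and Stat2 by 1.66 (SE 0.35, 0.0187), which covers both ISGF3 subunits among the 9. Irf7 fell by 2.35 (SE 0.49, edgeR adjusted p 0.0175) and Irf1 by 2.099 (SE 0.56, 0.0371) among the IRF genes. Both SOCS genes fell, Socs1 by 2.43 (SE 0.59, edgeR adjusted p 0.0274), and Socs3 fell by 2.125 (SE 0.57, 0.0362).

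The other 3 genes did not pass with edgeR: Stat3 at -0.74 ± 0.23 (adjusted p 0.0516), Irf5 at -1.73 ± 0.55 (0.0561) and Stat4 at -1.58 ± 0.84 (0.195). The median log2 fold change of the 9 was -1.73, against -0.06 over all tested genes. The groups did not overlap in 6 genes, all lower in AAV-GFP-MBNL1Δ, against 19.2% of all tested genes. These 6 are the called genes with Irf5 in place of Socs3. The AAV-GFP libraries enter both this comparison and that against saline, so the 2 sets of values are not separate evidence.

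The calls were carried unevenly by the libraries. Calls over all tested genes moved as well: refits without 1 library gave 826 to 6649 in either direction, against 3914 with all libraries in. Irf9 kept its call in 8 of 9 refits that each left out 1 library and lost it without AAV-GFP-MBNL1Δ 3 (edgeR adjusted p 0.061). Irf7 and Stat2 kept theirs in 7 of 9, losing them without AAV-GFP-MBNL1Δ 2 or 3. Socs1 kept its call in 5 of 9, losing it without AAV-GFP 1 or any 1 of the AAV-GFP-MBNL1Δ libraries. Irf1 and Socs3 kept theirs in 1 of 9, the refit without AAV-GFP 3, in which all 9 genes were called lower. Without AAV-GFP-MBNL1Δ 3 none of the 9 genes was called, and leaving out AAV-GFP 2 gave 4 calls and a median of -1.16. That refit moved Stat4 to -0.38, Irf5 to -0.74, Irf1 to -1.23, Irf7 to -1.52 and Socs1 to -1.61 on the log2 scale. DESeq2 and the filter of 1 CPM in 3 libraries called 8 of the 9 genes lower (all but Stat4, which that filter removed from testing and DESeq2 did not call), the quality weights 9 and limma-voom 3 (Stat2, Irf7 and Irf9).

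**Figure D3:**
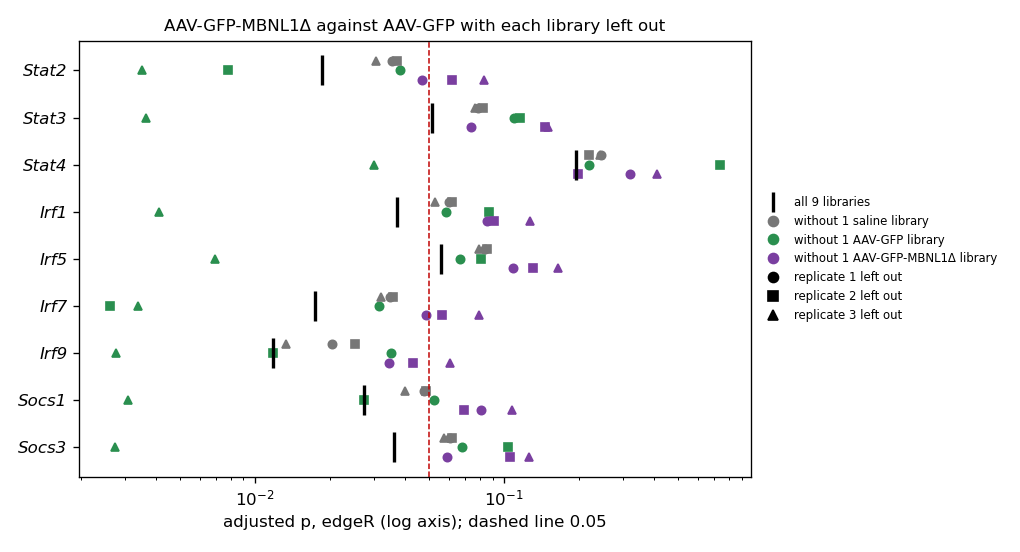
Adjusted p (edgeR, log axis) of each gene for AAV-GFP-MBNL1Δ against AAV-GFP with all 9 libraries (black bars) and with each library left out (colour for its group, shape for its replicate number); the dashed line is 0.05. The refit without AAV-GFP 3 (green triangles) has all 9 genes below the line, and that without AAV-GFP-MBNL1Δ 3 (purple triangles) has none.

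Summed markers of T cells, macrophages and NK cells lay above saline in every library of both vectors, as among the 9 genes only Stat4 did. Summed T-cell markers were at 0.803 to 1.001 CPM in saline, at 31.7, 79.0 and 5.96 in AAV-GFP 1 to 3 and at 5.92 to 14.1 in AAV-GFP-MBNL1Δ, and all 8 listed had groups apart and higher for each vector against saline, as did 14.7% of all tested genes for AAV-GFP and 22.7% for AAV-GFP-MBNL1Δ. Summed macrophage markers were at 74.8 to 99.0 CPM in saline, at 448.8, 1984 and 195.6 in AAV-GFP 1 to 3 and at 147.5 to 228.7 in AAV-GFP-MBNL1Δ, with 8 of 8 apart and higher for AAV-GFP and 7 of 8 for AAV-GFP-MBNL1Δ against saline. Summed NK-cell markers were at 0.221 to 0.303, 3.25 to 42.8 and 1.57 to 4.33 CPM, with 5 of 5 apart and higher for each vector. All 3 sums were highest in AAV-GFP 2, as were the 9 genes.

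B and plasma cell markers summed to 0.273 to 0.910 CPM in saline, 2.86 to 903.2 in AAV-GFP and 30.9 to 95.1 in AAV-GFP-MBNL1Δ, where AAV-GFP 3 was lowest of the vector libraries. Of their 6 genes Mzb1 was at 0 in every library. Muscle fibre markers summed to 140000 to 173500 CPM in saline, 78810 to 135100 in AAV-GFP, lowest in AAV-GFP 2, and 149700 to 172300 in AAV-GFP-MBNL1Δ. In the same order of groups, endothelial sums were lower with either vector, at 361.2 to 396, 241.3 to 349.5 and 261.5 to 318.9 CPM. Fibroblast sums were at 1063 to 1262, 1184 to 2234 and 1306 to 1574 CPM. Dendritic cell sums were at 11.9 to 15.4, 15.9 to 33.9 and 16.4 to 20.3 CPM, and neutrophil sums at 0.419 to 0.663, 1.73 to 24.8 and 1.36 to 3.76. Within AAV-GFP-MBNL1Δ the T-cell sum was thus 6.44-fold to 15.3-fold the saline mean while the median of the 9 genes was 0.988-fold to 1.43-fold. In bulk tissue, more cells of a type and more RNA per cell cannot be told apart, and the part of these cells in the values of the 9 genes was not tested.

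**Figure D4:**
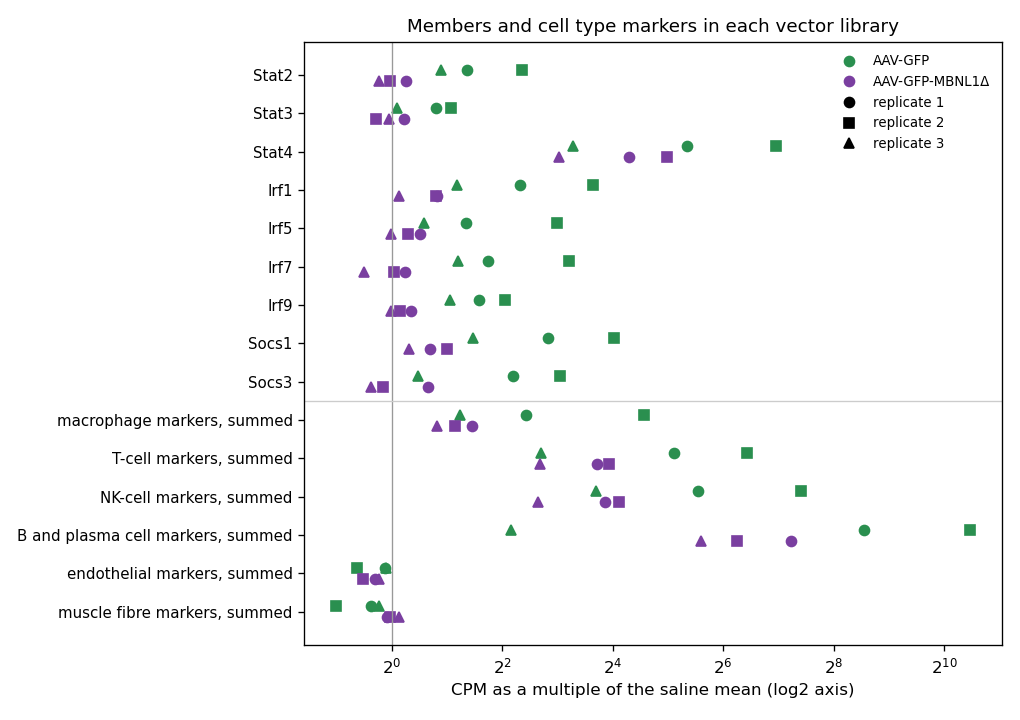
CPM of each of the 9 genes and summed CPM of cell type markers in the 6 vector libraries as a multiple of the saline mean (log2 axis; green AAV-GFP, purple AAV-GFP-MBNL1Δ; shape gives the replicate). The T-cell sum is 6.44-fold to 15.3-fold in the purple libraries, where the 9 genes other than Stat4 lie between 0.708-fold and 2.01-fold.

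The genes whose profile over the 9 libraries came closest to each of the 9 were ranked by RMS difference among 11950 protein-coding genes with a mean of at least 1 CPM. Stat2 was closest to Ifih1 (0.09), a sensor of viral RNA, then Parp9 and Uba7. Irf1 was closest to H2-D1 (0.16) and B2m (0.16), which form class I antigen-presenting molecules, and Psmb10, a subunit of the immunoproteasome. Socs1 was closest to Psmb9 (0.16), Gbp7 (0.19) and Psmb8 (0.20), of which Psmb9 and Psmb8 also encode immunoproteasome subunits.

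Irf7 was closest to H2-Q4 (0.19), Oasl2 and Slamf9, and Irf9 to Alox5 (0.20), Ifitm3 and Ube2l6. Irf5 was closest to Fxyd5 (0.10), Dok2 and Sirpa, a receptor of myeloid cells. Stat4 was closest to Skap1 (0.23) and Cd6, both T-cell genes, and Eomes, which is also on the NK-cell marker list. Stat3 was closest to Dab2 (0.08), Clic4 and Atp8b2, and Socs3 to Foxm1 (0.14), Batf3 and Parp14. Profiles share libraries and depth, so likeness is a description.

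The rest of the pathway was read from lists of 74 other genes, of which 68 were tested. Against saline, AAV-GFP gave 0 calls with edgeR, while DESeq2 called 35, limma-voom 0 and the quality weights 47. At an unadjusted edgeR p under 0.05, 44 were higher and 3 lower, against 15.6% and 6.35% of all tested genes. With edgeR, AAV-GFP-MBNL1Δ gave 4 of the 68 higher and 1 lower against saline, where 4.76% and 4.6% of all tested genes passed. Against AAV-GFP it gave 4 higher and 19 lower, where 10.8% and 10.3% of all tested genes passed. These counts moved with single libraries: against AAV-GFP, 48 were called without AAV-GFP 3, 4 without AAV-GFP-MBNL1Δ 1, 8 without AAV-GFP-MBNL1Δ 2, 0 without AAV-GFP-MBNL1Δ 3 and 12 to 17 without any 1 of the others. Against saline, AAV-GFP-MBNL1Δ had 14 calls without AAV-GFP 2 and 0 to 7 without any 1 of the others. Of the called genes named below, Isg15, Mx2 and Jak2 kept their calls against AAV-GFP in 8 of 9 refits without 1 library, Pias2, Ptpn11, Lifr and Oas2 in 7, Il12b in 6, Socs4 in 4, Stat5a and Ifit1 in 2, and Il27 and Cxcl10 in 1. Against saline, Jak2 and Cxcl10 kept theirs in 4 of 9, Cxcl9 in 3, and Il12b and Ifngr2 in 2. The median log2 fold change of the 68 was 1.01, 0.27 and -0.86 in the 3 comparisons.

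Among the other STAT and IRF genes, 1 of 7 fell in AAV-GFP-MBNL1Δ against AAV-GFP, near the 10.3% of all tested genes. Stat5a, whose gene model shares 72 bases with that of Stat3, fell by 0.43 (SE 0.12, edgeR adjusted p 0.0357). Irf8 had 0 counts in every library, but it lies inside the readthrough gene model Gm20388, which held 79808 counts, so its 0 says nothing of its expression.

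Ligands were sparse. Il12b, a subunit of interleukin 12 and 23, had 0, 0 and 1 counts in saline, 50, 112 and 13 in AAV-GFP, and 9, 7 and 6 in AAV-GFP-MBNL1Δ. It fell by 2.79 on the log2 scale in AAV-GFP-MBNL1Δ against AAV-GFP (SE 0.58, edgeR adjusted p 0.0156) and rose against saline (edgeR adjusted p 0.0471). Il12a, the other interleukin 12 subunit gene, had means of 5.15 CPM in saline, 3.59 in AAV-GFP and 3.90 in AAV-GFP-MBNL1Δ. Il12a was not called with edgeR in any comparison. Il27, an interleukin 12 family member, fell by 3.10 against AAV-GFP (SE 0.94, edgeR adjusted p 0.0496). Ifng, the type II interferon, had 2, 1 and 0 counts in saline, 36, 146 and 5 in AAV-GFP and 5, 13 and 6 in AAV-GFP-MBNL1Δ. Ifnb1, Ifne and Ifnk had no count in any library, which allows up to 0.00506 CPM over all libraries, counting error only.

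Of 14 receptors and 4 JAK kinases tested, 3 were called in a comparison. In AAV-GFP-MBNL1Δ against AAV-GFP, 1 receptor and 1 kinase were called, where 21.1% of all tested genes were called in either direction. Against saline, AAV-GFP-MBNL1Δ had 1 receptor lower and 1 kinase higher, where 4.6% and 4.76% of all tested genes passed. Jak2, which with Jak1 serves the type II interferon receptor, rose in AAV-GFP-MBNL1Δ against AAV-GFP by 0.48 on the log2 scale (SE 0.09, edgeR adjusted p 0.011) and against saline by 0.41 (SE 0.09, 0.0243). Its values were 58.5 to 71.5 CPM in saline, 60.8 to 65.8 in AAV-GFP and 84.4 to 89.7 in AAV-GFP-MBNL1Δ. The decoy vector libraries thus stood above the other 6, from which they also differ in sex by Xist and Ddx3y. Jak1 was at 0.30 ± 0.13 against AAV-GFP (edgeR adjusted p 0.126). Ifngr2, a chain of the type II interferon receptor, fell against saline by 0.60 (SE 0.15, edgeR adjusted p 0.0363), and Lifr, the receptor of leukemia inhibitory factor, rose against AAV-GFP by 0.42 (SE 0.10, 0.0243). Of 15 other inhibitors 3 were called against AAV-GFP, near the 21.1% of all tested genes called in either direction. Pias2 (0.52 ± 0.11) and the phosphatase Ptpn11 (0.59 ± 0.13) rose and Socs4 (-0.41 ± 0.10) fell, with edgeR adjusted p of 0.0154, 0.0169 and 0.0261.

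All 19 listed target genes had groups apart and higher in AAV-GFP against saline, as did 14.7% of all tested genes. None of the 19 was called there with edgeR or limma-voom, all 19 were higher at an unadjusted edgeR p under 0.05, and DESeq2 and the quality weights called 18 each. In AAV-GFP-MBNL1Δ against AAV-GFP, 15 of 19 fell with edgeR, against 10.3% of all tested genes, with a median log2 fold change of -2.54. Isg15, a ubiquitin-like modifier, was at 0.589 ± 0.0883 CPM in saline, 3.16 ± 2.47 in AAV-GFP and 0.438 ± 0.0432 in AAV-GFP-MBNL1Δ (SD, n = 3), and fell by 2.85 against AAV-GFP (SE 0.50, edgeR adjusted p 0.00925). The antiviral genes Mx2, Oas2 and Ifit1 fell by 1.56, 1.84 and 1.68 (edgeR adjusted p 0.0123, 0.0135 and 0.0367). Cxcl9 and Cxcl10, chemokines that attract T cells, were the 2 targets that rose against saline in AAV-GFP-MBNL1Δ: Cxcl9 was at 0.279 ± 0.223 CPM in saline, 132.9 ± 146.3 in AAV-GFP and 15.1 ± 7.77 in AAV-GFP-MBNL1Δ (SD, n = 3), with an edgeR adjusted p of 0.0291 against saline. Cxcl10 rose by 4.65 against saline (SE 0.93, edgeR adjusted p 0.0217) and fell by 2.54 against AAV-GFP (SE 0.73, 0.0439).

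**Figure D5:**
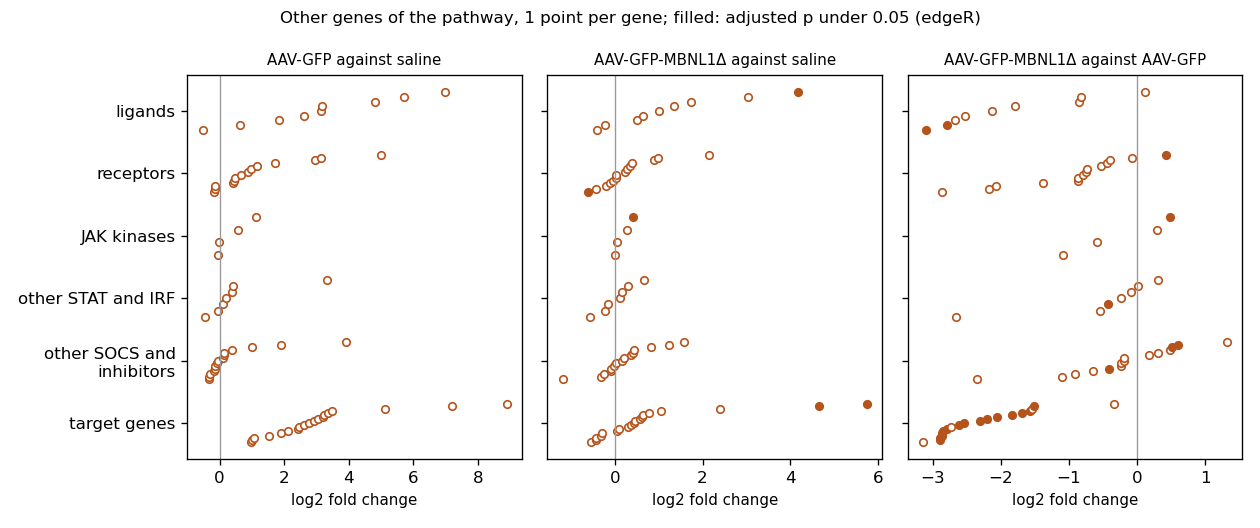
Log2 fold change (horizontal axes) of the 68 other pathway genes in the 3 comparisons, 1 point per gene, by role; filled points have an edgeR adjusted p under 0.05. In the right panel 15 of the 19 target genes are filled and below 0.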

How the data were processed

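The authors deposited whole-number read counts per gene, 1 table for each of 9 libraries, made per the submitters' processing notes with cutadapt 2.10, STAR 2.7.5a and HTSeq 0.12.4 on mm10, with DESeq2 1.30.0 for their own comparisons. Per the labels, Trizol-extracted, DNase-treated RNA of whole muscle went into KAPA mRNA libraries. No source used here gives the annotation release or strand setting, so reads of overlapping genes (for Stat3, Stat4, Irf1, Irf5, Irf7 and Irf9) may not be told apart. The 5 rows that name no gene held 16.8% to 18.3% of reads and were left out. Names and coordinates came from GENCODE M21 (55141 identifiers matched, 260 did not), and promoters from RefSeq, which held all 9 genes.

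One robust quasi-likelihood model of edgeR 4.0.16 (R 4.3.3) covered all 9 libraries, with TMM scaling, edgeR's expression filter and a mean per group (6 residual degrees of freedom, biological coefficient of variation 0.232). Adjusted p-values are Benjamini-Hochberg values over all 18514 tested genes in each of 3 comparisons. The SE is the size of the log2 fold change divided by the square root of F. The procedure was tested on simulated data with the same spread in every group and no outlying library. That test cannot speak to calls that turn on single libraries. Alternatives were other scalings and filters, DESeq2 1.42.0, limma-voom (limma 3.58.1), only the 2 groups compared, a replicate block and leaving out each library; quality weights were added after the data were seen.

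The 9 genes and all lists were chosen with earlier results of these data known. Named are all 9 genes, up to 6 called genes per pathway list by the smallest p in any of the 3 comparisons, whether or not called in that one, and the 3 nearest profiles per gene (log2 CPM, prior count 2). Ifng, Il12a, Jak1 and the genes at 0 were named after their values were seen. Of the listed genes, 1 is not reported here and was left out of the list counts and profile ranking.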

Additional observations from a re-analysis of the deposited data

How the results depend on the processing

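Each of the 9 genes kept its direction for AAV-GFP against saline and for AAV-GFP-MBNL1Δ against AAV-GFP under every alternative that tested it; Stat4 was not tested under the filter of 1 CPM in 3 libraries. For AAV-GFP against saline, 0 calls over all genes became 1705 with DESeq2, 5464 with quality weights and 99 with the replicate block. Among the 9 genes 0 became 9 with DESeq2 and 9 with quality weights, and among the 68 pathway genes 0 became 35, 47 and, with the block, 4. For AAV-GFP-MBNL1Δ against saline, 1734 calls became 2889 with DESeq2, 5458 with quality weights and 4584 with only the 2 groups. Stat4 was the 1 gene of the 9 called with DESeq2, quality weights, only the 2 groups and the replicate block (1 each). The 5 pathway calls became 8 with DESeq2, 13 with quality weights, 2 with limma-voom, 3 with no expression filter and 19 with only the 2 groups. For AAV-GFP-MBNL1Δ against AAV-GFP, 3914 calls became 9294 with quality weights and 1159 with only the 2 groups. The 6 of the 9 genes became 8 with DESeq2, 8 with the 1 CPM filter, 9 with quality weights, 4 with the replicate block, 3 with limma-voom, 3 with no expression filter and 1 with only the 2 groups, and the 23 pathway calls became 40 with DESeq2, 51 with quality weights, 12 with no filter and 5 with only the 2 groups. The causes were not tested.

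Leaving out each library, calls over all genes ran from 0 to 3262, 500 to 4047 and 826 to 6649 in the 3 comparisons, in the order above. The 9 genes gave 0 to 9 higher, 0 to 1 higher and 0 to 9 lower, the pathway genes 0 to 45, 0 to 14 and 0 to 48 calls, and the median log2 fold changes 1.47 to 2.66, 0.04 to 0.41 and -2.14 to -1.16. The reversals all lay near 0 in AAV-GFP-MBNL1Δ against saline: Stat3 was at 0.030 with quality weights and Stat2 at -0.0004656 with only the 2 groups. With libraries left out, Stat2 ran from -0.12 to 0.19, Stat3 from -0.16 to 0.094, Socs3 from -0.26 to 0.32 and Irf7 from -0.20 to 0.16.

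Correlations between the deviations of same-numbered libraries ran from -0.08 to 0.45 over the 3 comparisons. In AAV-GFP-MBNL1Δ against AAV-GFP they were 0.07, 0.17 and 0.45, and different-numbered libraries ran from -0.44 to 0.28. Deviations from a mean of 3 libraries constrain each other, so these values cannot decide whether the numbers pair the libraries. With the replicate block, Irf1 (adjusted p 0.065) and Socs3 (0.0597) lost their calls against AAV-GFP and Stat4 gained its call against saline (0.0414). Depth limits Stat4, Il12b and Ifng, with few counts in saline.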
